A study of Prunus dulcis with 36 samples.

Results

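This report describes 3 unigenes of the auxin response in developing almond (Prunus dulcis) fruits. They are TRINITY_DN26918_c0_g1 and TRINITY_DN26918_c0_g2, both annotated by the authors as auxin-responsive protein IAA13, and TRINITY_DN18673_c0_g1, annotated as auxin-induced protein 15A. They were chosen by name, as the unigenes that the study names with an ID for these proteins, and they are 3 of the 8676 unigenes in the deposited expression values. A unigene is a representative transcript assembled from the reads without a genome, and its ID gives the assembly cluster (DN), the component (c) and the gene within it (g). The prefix TRINITY, the name of the assembler, is left out below. Both IAA13 unigenes therefore belong to 1 component of 1 cluster.

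Auxin promotes the growth of young fruits and delays the shedding of plant organs. In the textbook pathway auxin brings receptor F-box proteins and Aux/IAA repressors together, the repressors are degraded, and auxin response factors are then free to act on their target genes. Arabidopsis IAA13 is one of these Aux/IAA repressors, and many genes of this family are themselves switched on by auxin, which closes a feedback loop. Auxin-induced protein 15A was named in soybean and belongs to the SAUR family (small auxin up RNAs), whose messages appear soon after auxin and whose Arabidopsis members promote cell expansion.

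The study compared normal fruits with abnormal fruits of the cultivar ZhiPi, to ask which genes differ in fruits that are about to drop. The abnormal fruits were small, atrophied fruits picked from the same branches as the normal ones, and were those judged most likely to be shed. Each fruit type was sampled at 12, 17, 22, 27, 32 and 37 days after flowering (DAF), which makes 12 groups with 3 replicates each and 36 samples in all. Whole fruits were cut up, and several fruits of a plant were mixed for each replicate. The state of a fruit was judged by eye, no agent was applied, and the tissues inside the fruit were not separated. In such mixed tissue, fewer cells that express a gene and less RNA per cell cannot be told apart.

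Each deposited column holds the authors' mean normalised FPKM (fragments scaled to transcript length and to library size) of 1 group. FPKM is set per length, so that levels may be compared between unigenes. With 1 mean per group, neither a test nor a P-value nor the scatter of the replicates can be given for any difference below, and since the values carry no read counts, no counting interval is given. The measure of comparison was log2(FPKM + 1) of abnormal minus that of normal fruits. A difference larger than 1 in size is called past the threshold of 1. Adding 1 understates the differences of weakly expressed unigenes.

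The listed unigenes were a selected set, since each of the 8676 differed by at least 1.0 in log2(FPKM + 1) from normal fruits at 12 DAF in some other group. DN26918_c0_g1 and DN18673_c0_g1 met this without abnormal fruits at 17 DAF, through 37 DAF. DN26918_c0_g2 was also past it in abnormal fruits at 32 DAF, at −1.69 relative to normal fruits at 12 DAF. Abnormal fruits at 17 DAF were the group least like its closest other group. Across the listed unigenes their highest Pearson r with any group was 0.835, with abnormal fruits at 27 DAF, whereas the highest r of each of the 11 other groups lay between 0.863 and 0.902. Normal and abnormal fruits had an r of 0.727 at 17 DAF and of 0.825 to 0.902 at the other stages. The mean r of abnormal fruits at 17 DAF with the neighbouring stages was 0.807. Abnormal fruits at 12 DAF had 0.796, but their only neighbouring stage is 17 DAF, so that this value is their r with that group. Abnormal fruits at 37 DAF, whose only neighbouring stage is 32 DAF, had 0.805. Abnormal fruits at 17 DAF also hold the lowest value of both IAA13 unigenes, so results that rest on this group are given with and without it below.

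A primer is shown because the study lists it for the IAA13 unigene that it took to RT-qPCR. It is given 5′ to 3′ as in the primer list of the study, in lower case with no part singled out.
DN26918_c0_g1 forward primer: aggtgccctttctccttagc
The primer has 20 bases. The reverse primer is listed in the opposite reading direction and is not shown, and whether the pair also amplifies DN26918_c0_g2 was not tested. Unigene and genome sequences were not used here, so that no genome position is given.

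The more abundant IAA13 unigene, DN26918_c0_g2, was among the most highly expressed of the listed unigenes. From the first stage to the last, 12 to 37 DAF, normal fruits held 530.5, 602, 559.6, 324, 262 and 394 FPKM. Abnormal fruits held 399.6, 12.9, 354, 242, 164 and 266 FPKM over the same 6 stages, the value of 12.9 FPKM being that of 17 DAF. A high plateau to 22 DAF, a lower level at 27 and 32 DAF and a higher value at 37 DAF were thus seen in normal fruits, and abnormal fruits had a like order apart from 17 DAF. In normal fruits at 17 DAF only 61 listed unigenes had a higher FPKM, whereas in abnormal fruits at that stage 1673 did.

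DN26918_c0_g1 had a lower level and another course. Over the 6 stages in turn its level in normal fruits was 13.6, 34.1, 28.0, 33.4, 25.0 and 133 FPKM. The abnormal fruits had 9.24, 7.76, 21.4, 20.0, 15.4 and 97.6 FPKM, each below the normal fruits of the same stage. Both fruit types were highest at 37 DAF, at least 2.86 times above every group of an earlier stage. From 12 to 37 DAF the level was 9.73 times higher in normal and 10.6 times higher in abnormal fruits.

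The SAUR unigene DN18673_c0_g1 started lowest of the 3. Its normal-fruit levels, in order of stage, were 4.77, 9.08, 18.0, 25.6, 23.5 and 27.7 FPKM. The corresponding abnormal-fruit levels were 4.64, 12.9, 12.9, 26.7, 14.0 and 27.8 FPKM. The level was higher at 37 DAF than at 12 DAF in both fruit types, by a factor of 5.82 in normal and 6.0 in abnormal fruits. From 27 to 32 DAF the log2 step was −0.89 in abnormal fruits and −0.12 in normal fruits, and the latter turned to 0.31 with median-of-ratios scaling.

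**Figure D1:**
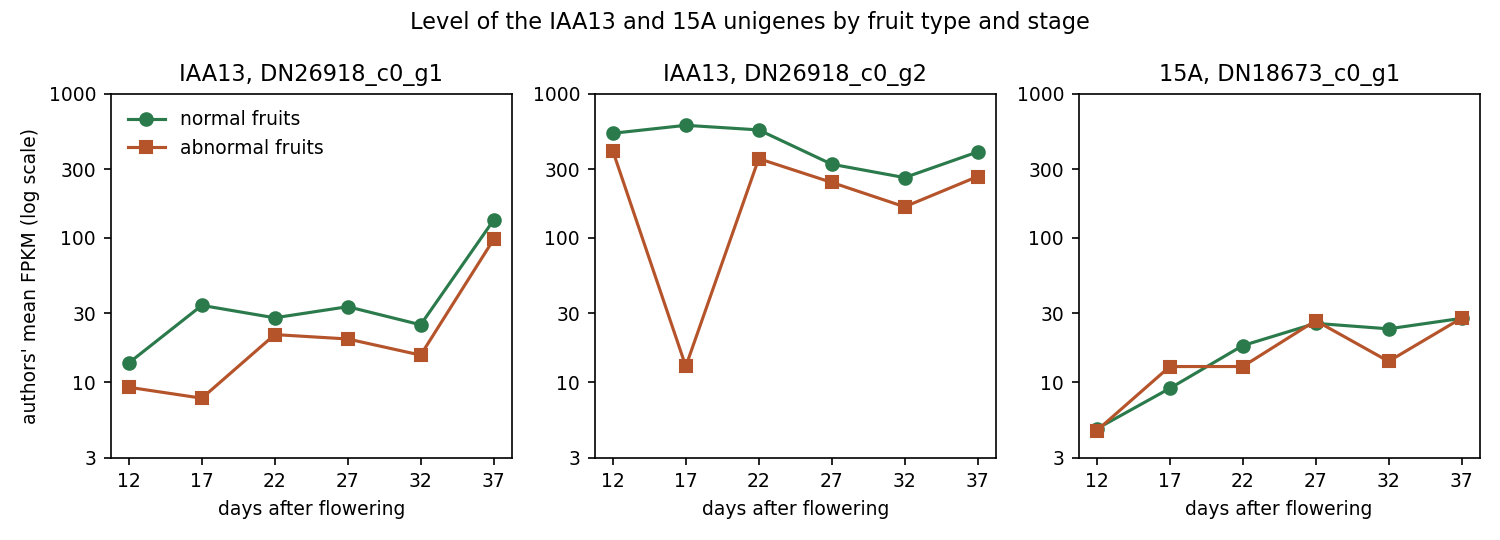
Authors' mean FPKM (log axis) of the 3 unigenes against days after flowering, with normal fruits as circles and abnormal fruits as squares, 1 mean of 3 replicates per point and no error bars. DN26918_c0_g2 drops to 12.9 FPKM in abnormal fruits at 17 DAF alone, both IAA13 unigenes lie lower in abnormal fruits at each stage, and the 15A courses cross.

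Placed in order over the 12 groups, DN26918_c0_g2 was highest in normal fruits at 17, 22 and 12 DAF and lowest in abnormal fruits at 17, 32 and 27 DAF. For DN26918_c0_g1 the order began with both fruit types at 37 DAF, and ended with normal fruits at 12 DAF, abnormal fruits at 12 DAF and abnormal fruits at 17 DAF. DN18673_c0_g1 was highest in both fruit types at 37 DAF, with 27.8 and 27.7 FPKM, and lowest in both at 12 DAF, with 4.77 and 4.64 FPKM. Which neighbours in these orders differ by more than the replicates do was not tested, since each group is 1 mean.

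At 6 of 6 stages both IAA13 unigenes had a lower level in abnormal fruits than in the normal ones. Of the listed unigenes, 217 or 2.50% were lower in abnormal fruits at each stage, and of the 3099 listed unigenes above 0 in all 12 groups, 199 or 6.42% were. The size of the difference was past 1 at 17 DAF only. At that stage DN26918_c0_g2 was 46.7 times lower in abnormal fruits, or at 2.14% of its normal level, with a log2 difference of −5.44. Only 41 of the 8676 listed unigenes had a lower difference at 17 DAF. DN26918_c0_g1 was 4.39 times lower, with a log2 difference of −2.0, and 1040 listed unigenes had a lower one. The background at 17 DAF was wide, as 41.5% of the listed unigenes were past 1 in either direction, and a difference under −1 was found for 23.5%. Of the 368 listed unigenes with at least 100 FPKM in normal fruits at 17 DAF, 208 were lower by more than 1, and 17 had a difference below that of DN26918_c0_g2. This set was chosen by its high level in normal fruits at that stage. Such a choice favours lower values in abnormal fruits, so these counts are not a neutral background.

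At the other 5 stages the differences of both IAA13 unigenes lay between −0.71 and −0.37 on the deposited scale. For DN26918_c0_g2 the log2 differences at 12, 22, 27, 32 and 37 DAF were −0.41, −0.66, −0.42, −0.67 and −0.56, so that abnormal fruits held between 62.8% and 75.3% of the normal level. The corresponding log2 differences of DN26918_c0_g1 were −0.52, −0.37, −0.71, −0.66 and −0.44, with abnormal fruits at 59.8% to 76.5% of the normal level. The paper describes DN26918_c0_g1 as strongly declined in abnormal fruits at 12 DAF, where the difference of the deposited means was −0.52. The paper's test on replicates could not be repeated here. With 17 DAF left out, the median log2 difference was −0.56 for DN26918_c0_g2 and −0.52 for DN26918_c0_g1. Of the listed unigenes, 30.6%, 21.7%, 20.8%, 15.9% and 14.5% were past 1 in either direction at these 5 stages, and of the 3 auxin response unigenes 0 did. Whether the columns share a common scale cannot be settled from the listed unigenes, since these were selected for change. A shift in scale and a change in many unigenes cannot be told apart, and both rescalings used here assume an unchanged bulk. A median-of-ratios scale, taken from the unigenes that no group lists at 0, put abnormal against normal fruits at −0.28 at 22 DAF and −0.29 at 27 DAF on the log2 scale, and at −0.18 at 17 DAF. At 32 and 37 DAF the corresponding values were 0.03 and −0.03. By the totals of the columns, abnormal against normal fruits were at −0.10 at 22 DAF, −0.19 at 27 DAF and 0.05 at 17 DAF. With median-of-ratios scaling the difference of DN26918_c0_g1 at 22 DAF shrank to −0.10 and that of DN26918_c0_g2 at 27 DAF to −0.13. With columns scaled to equal totals these differences were −0.28 and −0.23. Over the 6 stages and both scalings, the differences of both IAA13 unigenes were below 0 in 24 of 24 values. These are rescaled forms of the same differences and not separate observations.

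Auxin-induced protein 15A did not share this direction. DN18673_c0_g1 was lower in abnormal fruits at 3 stages and higher at 3, and was past the threshold of 1 at 0 of 6 stages. At 17 DAF, where both IAA13 unigenes were far lower, its level in abnormal fruits was 1.42 times that in normal fruits (log2 difference 0.46). The paper names DN18673_c0_g1 in a hormone pathway among the unigenes that differ between fruit types at 17 DAF. The differences were −0.45 at 22 DAF and −0.71 at 32 DAF, where abnormal fruits had 71.6% and 59.5% of the normal level. The remaining differences, at 12, 27 and 37 DAF, were −0.03, 0.06 and 0.00, and the level was 97.2%, 104% and 100.3% of that in normal fruits. The sign at 12 and 37 DAF turned with the scaling of the columns to the same total, to 0.059 and −0.029.

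**Figure D2:**
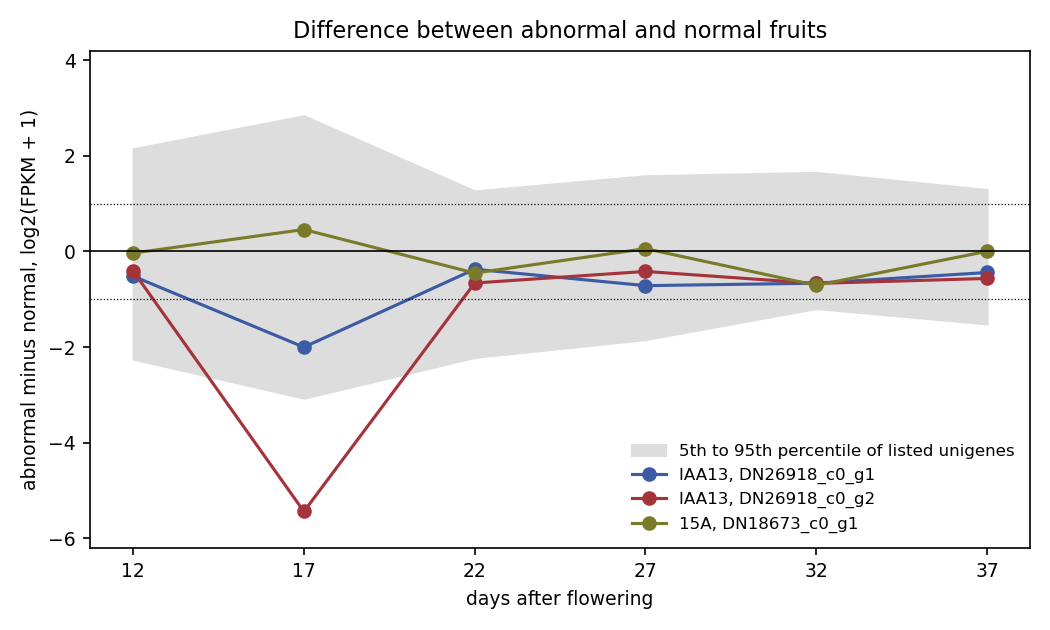
Difference in log2(FPKM + 1), abnormal minus normal, of each of the 3 unigenes against days after flowering. The grey band spans the 5th to the 95th percentile of the 8676 listed unigenes and the dotted lines mark 1 and −1. DN26918_c0_g2 leaves the band at 17 DAF (−5.44), DN26918_c0_g1 reaches −2.0 inside it, and all other points lie between −0.71 and 0.46.

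From stage to stage, DN26918_c0_g2 moved past 1 between neighbouring stages in abnormal fruits only. Its log2 step was −4.85 from 12 to 17 DAF, where 54 listed unigenes had a lower step and the background of negative steps past 1 was 22.2%, and 4.67 from 17 to 22 DAF, where 65 had a higher step. These are a 31.0 times lower and a 27.4 times higher level. A fall past 1 followed by a return past 1 at these stages was found for 10.9% of the listed unigenes in abnormal and 4.21% in normal fruits. In normal fruits the steps of DN26918_c0_g2 over the same stages were 0.18 and −0.11. Its lowest step in normal fruits was −0.79 from 22 to 27 DAF, which was past 1 with either scaling of the columns (−1.22 with equal totals and −1.16 with median of ratios). Without 17 DAF, its levels in abnormal fruits spanned 1.28 on the log2 scale, against 4.85 with it and 1.20 over the 6 stages of normal fruits.

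DN26918_c0_g1 had 2 steps past 1 in each fruit type. The late step from 32 to 37 DAF was shared, at 2.36 in normal and 2.58 in abnormal fruits, where 14.6% and 13.0% of the listed unigenes had a positive step past 1. The level was 5.30 times higher after this step in normal and 6.32 times higher in abnormal fruits. The early step came at different stages. In normal fruits it was 1.26 from 12 to 17 DAF, where 6.55% of the listed unigenes had a positive step past 1. In abnormal fruits the step from 12 to 17 DAF was −0.22, and 1.35 followed from 17 to 22 DAF, where the background was 19.3%. Whether the early step differs between the fruit types was not tested.

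The largest steps of the SAUR unigene DN18673_c0_g1 in abnormal fruits were 1.30 from 12 to 17 DAF, where the background of positive steps past 1 was 14.5%, and 1.0 from 22 to 27 DAF, which lay just under the threshold. The step from 17 to 22 DAF between them was 0.00. In normal fruits its steps were 0.81, 0.91, 0.49, −0.12 and 0.23 in order of stage, so that a similar total was reached by a more even course. After the step of −0.89 from 27 to 32 DAF in abnormal fruits, 0.94 followed to 37 DAF.

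Over the 6 stages, the courses of normal and abnormal fruits had a Pearson r of 0.872 for DN26918_c0_g1, 0.896 for DN18673_c0_g1 and −0.28 for DN26918_c0_g2. Without 17 DAF these became 0.993, 0.938 and 0.968 over 5 stages, so that the opposite sign for DN26918_c0_g2 rests on 17 DAF. The median over the 7226 listed unigenes for which r could be computed was 0.343 with and 0.558 without 17 DAF. These r values describe means of few stages and carry no P-value.

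Since both IAA13 unigenes come from 1 component of the assembly, reads of a shared stretch could have been divided between them by the counting, and their separate levels are uncertain to that extent. At 12 DAF, DN26918_c0_g2 made up 97.5% of their summed FPKM in normal fruits and 97.7% in abnormal fruits. From 22 to 32 DAF its share lay between 90.7% and 95.2% in normal and between 91.4% and 94.3% in abnormal fruits, and at 37 DAF it was 74.8% and 73.2%. The share hardly differed between fruit types at these stages. At 17 DAF, by contrast, normal fruits had a share of 94.6% and abnormal fruits one of 62.4%. The summed FPKM at 17 DAF was 636 for normal against 20.7 for abnormal fruits, a log2 difference of −4.88, and at the other stages the sum in abnormal fruits was 62.7% to 75.1% of that in normal fruits. Whether reads were divided differently between the pair at 17 DAF was not tested.

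**Figure D3:**
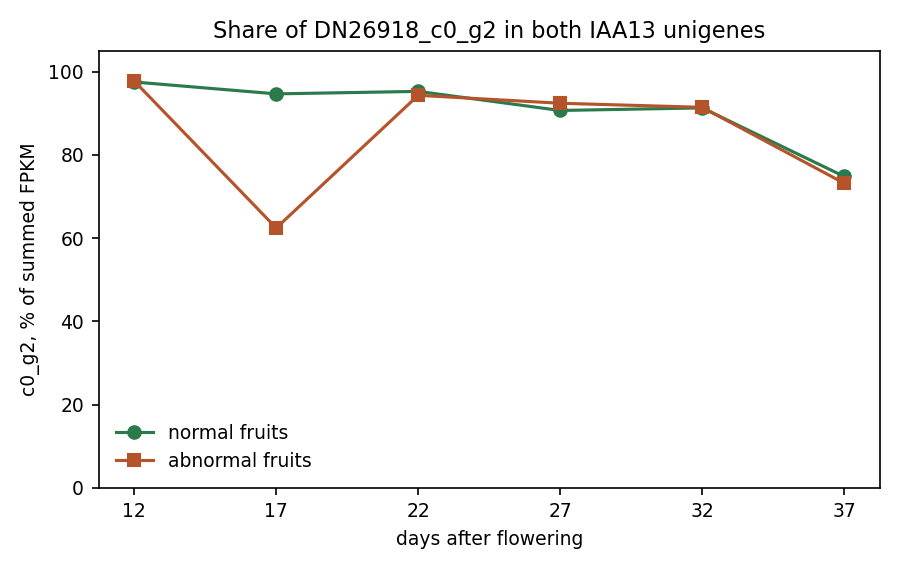
Share of DN26918_c0_g2 in the summed FPKM of both IAA13 unigenes (percent, axis from 0) against days after flowering, with normal fruits as circles and abnormal fruits as squares. The fruit types nearly coincide from 97.5% and 97.7% at 12 DAF to 74.8% and 73.2% at 37 DAF, except at 17 DAF with 94.6% and 62.4%.

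Between the 3 unigenes, the courses over the 12 groups were compared by Pearson r on log2(FPKM + 1). The groups share their stage and the scale of their columns, so r is a description. DN26918_c0_g1 and DN18673_c0_g1 had the highest r, 0.645 over 12 groups and 0.680 without abnormal fruits at 17 DAF. Both were low at 12 DAF and high at 37 DAF. The IAA13 unigenes had an r of 0.407 with each other, which was 0.029 without abnormal fruits at 17 DAF, so that their likeness over the 12 groups rests on that group. DN26918_c0_g2 and DN18673_c0_g1 had an r of −0.11, and −0.46 without that group.

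The unigenes whose course was most like each of the 3 were taken from the 5891 others with a mean of at least 1 FPKM. For DN26918_c0_g2 these were DN17668_c0_g1 (r = 0.974), DN24006_c1_g1 (0.971) and DN18609_c0_g1 (0.966). The choice by r favours unigenes that share its low value in abnormal fruits at 17 DAF, and all 3 were lowest in that group. DN17668_c0_g1 had 6.54 FPKM there against 120.1 FPKM in normal fruits at 17 DAF. DN24006_c1_g1 had 6.16 against 52.3 FPKM and DN18609_c0_g1 7.14 against 74.7 FPKM. An r of at least 0.9 with DN26918_c0_g2 was found for 93 unigenes. Without abnormal fruits at 17 DAF the r of these 3 was 0.858, 0.870 and 0.828, and none of them (0 of 3) was among the 3 most alike.

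For DN26918_c0_g1 the most alike were DN23894_c0_g2 (r = 0.935), DN24111_c0_g1 (0.921) and DN24092_c3_g2 (0.921), and 8 unigenes had an r of at least 0.9. DN24111_c0_g1 reached 50.8 FPKM in normal fruits at 37 DAF and DN24092_c3_g2 38.1 FPKM in abnormal fruits at 37 DAF, whereas DN23894_c0_g2 had 6.38 FPKM at most. For DN18673_c0_g1 they were DN22058_c0_g1 (r = 0.964), DN23506_c3_g2 (0.958) and DN14218_c0_g1 (0.951), and 49 had an r of at least 0.9. DN14218_c0_g1, which reached 299.6 FPKM in normal fruits at 27 DAF, is annotated as a putative invertase inhibitor, a protein that holds back the splitting of sucrose. The parts of the annotation used here do not pair the other 8 with names.

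Other genes of the auxin pathway were taken from the parts of the study's annotation tables at hand, by their KEGG, Pfam or Swiss-Prot entries. This gave 10 unigenes, of which 6 are among the listed unigenes and 4 are not, and 5 of the 6 come from the study's own table of differentially expressed unigenes, so the list is not independent of these samples. Of the 6, 1 was higher and 0 were lower in abnormal fruits by more than 1 at 12 DAF, and 1 was higher and 2 were lower at 17 DAF. At 22, 32 and 37 DAF 0 were past 1 in either direction, and at 27 DAF 1 was lower. As background, 13.8%, 18.0%, 7.09%, 8.70%, 9.58% and 6.77% of the listed unigenes were higher in abnormal fruits by more than 1 over the 6 stages in turn, and 16.9%, 23.5%, 14.6%, 12.1%, 6.32% and 7.76% were lower. The 2 lower ones at 17 DAF were GH3.6 and auxin response factor 2, at 0 in abnormal and under 2 FPKM in normal fruits. Both are among the 3 of the 6 whose best protein match is from Arabidopsis thaliana. Whether these 3 come from almond was not tested, so counts and medians that include them are uncertain to that extent. The median log2 difference of the 6 was −0.84 at 17 DAF, where it depended on the added constant (−3.13 with 0.1 and −0.21 with 5), and between 0.00 and 0.10 at the other stages, against 0.00 over all listed unigenes at each stage. All 6 were listed at 0 in at least 4 of the 12 groups, whereas the IAA13 and 15A unigenes were above 0 in each group.

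Among the early response genes, the SAUR family unigene DN10050_c0_g1 was listed at 0 in normal fruits at 12, 17 and 22 DAF. In abnormal fruits it reached 1.27 FPKM at the first of these stages, 10.4 FPKM at the next and 0 at the last. Its highest levels came at 27 DAF, 17.5 FPKM for normal against 27.0 FPKM for abnormal fruits. Like DN18673_c0_g1 it was higher in abnormal fruits at 17 DAF. At 32 DAF its log2 difference was 0.19, where DN18673_c0_g1 was lower in abnormal fruits (−0.71). At 12 DAF its difference was 1.18, from 0 in normal fruits. That of DN18673_c0_g1 was −0.03 there, near 0, and its sign turned with equal totals (0.059). GH3.6 (DN17839_c0_g1), an enzyme that ties auxin to amino acids and so removes it, had 1.86 FPKM (normal) and 2.20 FPKM (abnormal) at 12 DAF, and at 17 DAF was above 0 in normal fruits alone, with 1.40 FPKM. The Aux/IAA repressor IAA16 (DN12747_c0_g1) had 1.60 and 3.39 FPKM at 12 DAF, and at 17 DAF normal fruits had 0.951 FPKM while abnormal ones were listed at 0. Auxin response factor 2 (DN10980_c0_g1), of the family that Aux/IAA proteins hold back, had 1.29 and 1.13 FPKM at 12 DAF, and at 17 DAF 1.44 FPKM for normal against 0 for abnormal fruits. GH3.6, IAA16 and auxin response factor 2 are the 3 with a best match in Arabidopsis thaliana, whereas the other 3 match peach. From 27 DAF on, GH3.6, IAA16 and auxin response factor 2 were at 0 in both fruit types.

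YUCCA8 (DN14474_c0_g1), an enzyme of auxin synthesis, was at 0 for normal and abnormal fruits alike at 12 and 17 DAF. At 27 DAF normal fruits had 3.89 FPKM and abnormal fruits were at 0, and at 32 DAF the levels were 2.60 and 3.21 FPKM. DN15493_c0_g1, with an auxin canalisation domain, did not exceed 1.23 FPKM in any group, and at 17 DAF it was at 0.631 FPKM for normal against 0 for abnormal fruits. At these levels the count of unigenes past 1 depended on the added constant and on the scaling. At 17 DAF, 3 of the 6 were lower by more than 1 with either scaling of the columns, in place of 2.

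**Figure D4:**
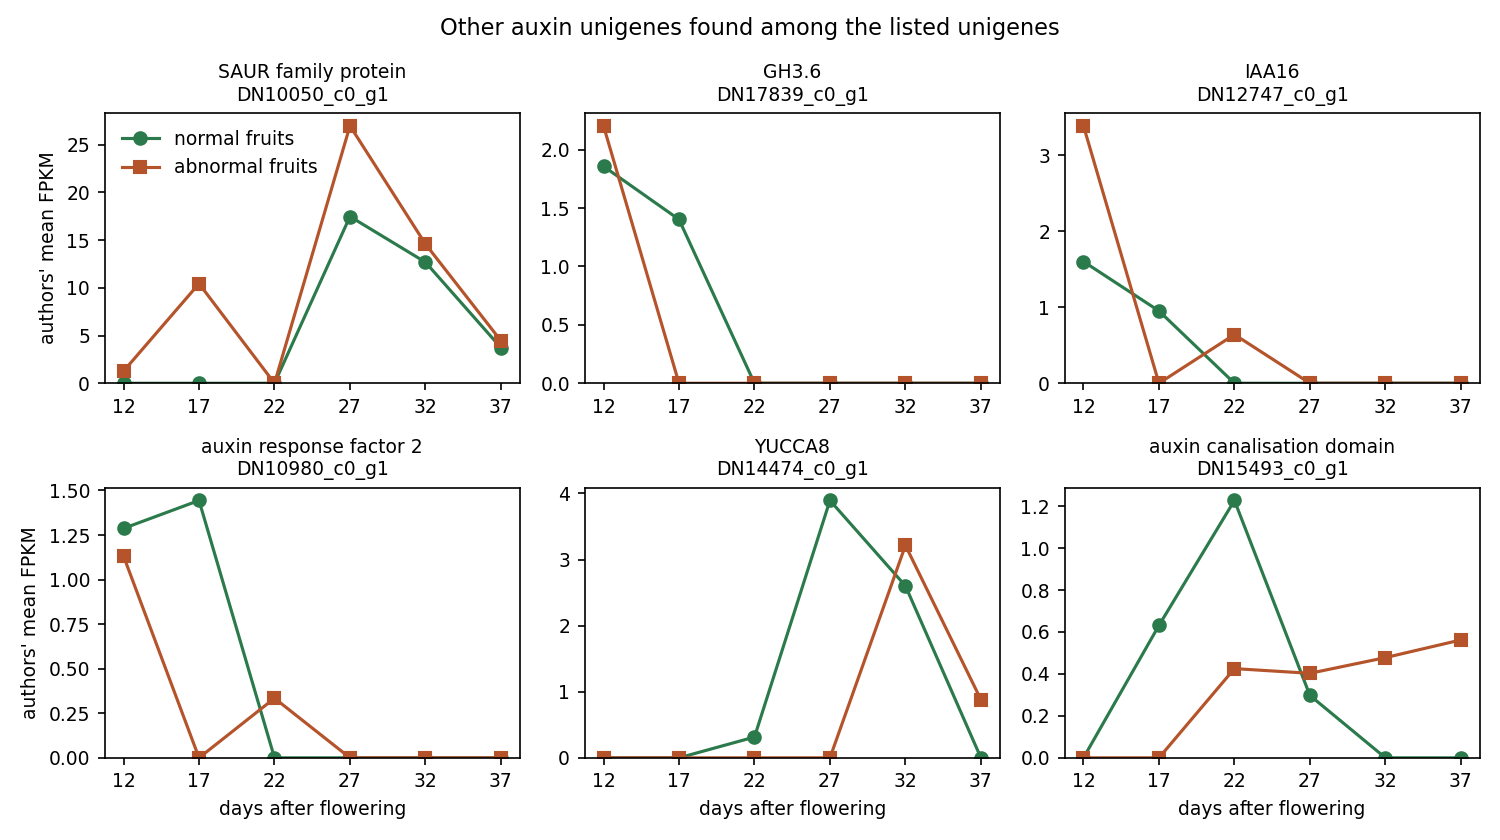
Authors' mean FPKM (linear axes from 0, a scale of its own in each panel) of the 6 further auxin unigenes against days after flowering, with normal fruits as circles and abnormal fruits as squares. At 17 DAF the SAUR unigene DN10050_c0_g1 is at 10.4 FPKM in abnormal fruits, and GH3.6, IAA16, auxin response factor 2 and DN15493_c0_g1 are above 0 in normal fruits only.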

How the data were processed

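Normal and abnormal almond fruits were sampled at 6 stages, 12 groups of 3 replicates, which the methods describe as coming from separate trees. The authors assembled reads with Trinity, used Bowtie2 for alignment and RSEM for expected counts, and computed FPKM after DESeq2 normalization. The deposited FPKM columns hold 1 mean per group, so that replicates could not be compared, and read depth per sample was not analysed here. RSEM estimates and averages need not be whole, so reads were not recovered. Averaging hides any single replicate that departs from the others.

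Differences in log2(FPKM + 1) were computed over all 8676 listed unigenes, and a size above 1, the fold threshold of the study without its P-value, was counted. No test was made. Named unigenes are the 3 members, the listed unigenes of an auxin list, and for each member the 3 with the highest Pearson r. Members and lists were chosen with earlier results of these data known. Alternatives were pseudocounts of 0.1 and 5, a threshold of 2, minima of 1 and 5 FPKM, scaling to equal totals or by median of ratios, Spearman's rho, and leaving out abnormal fruits at 17 DAF. The counting code was run on simulated data with large planted changes in well expressed unigenes, little noise and no shift in scale. Such a run checks the code and not the results. Python 3.11.15, numpy 2.4.6, pandas 2.3.3, scipy 1.17.1 and matplotlib 3.10.9 were used.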

Additional observations from a re-analysis of the deposited data

How the results depend on the processing

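With either scaling (equal totals, median of ratios), the log2 differences between fruit types kept their sign and their side of the threshold of 1 in 34 of 36 values of 3 unigenes at 6 stages. The 2 others were those of DN18673_c0_g1 at 12 and 37 DAF, 0.059 and −0.029 with equal totals. With pseudocounts of 0.1 and 5, which cannot turn a sign, 36 of 36 values kept their side of the threshold. Over these 4 settings at 17 DAF, DN26918_c0_g2 ranged from −5.53 to −5.08, DN26918_c0_g1 from −2.12 to −1.62 and DN18673_c0_g1 from 0.34 to 0.64. With median-of-ratios scaling, steps turned sign in normal fruits from 22 to 27 DAF for DN26918_c0_g1 (−0.12, and −0.17 with equal totals), from 27 to 32 DAF for all 3 (0.034 for DN26918_c0_g1, 0.14 for DN26918_c0_g2, 0.31 for DN18673_c0_g1), and in abnormal fruits from 17 to 22 DAF for DN18673_c0_g1 (−0.23). The step of DN26918_c0_g2 in normal fruits from 22 to 27 DAF was −1.22 with equal totals and −1.16 with median of ratios, which makes 1 unigene past 1 in place of 0. DN18673_c0_g1 in abnormal fruits had 0.89 from 12 to 17 DAF with a pseudocount of 5 (leaving 1 of the 3 past 1) and 1.05 from 22 to 27 DAF with 0.1 (making it 1). At a threshold of 2, 0 of the 3 remained for normal fruits from 12 to 17 DAF, and 1 each for abnormal fruits from 12 to 17 and from 17 to 22 DAF. For the r of both IAA13 unigenes the values were 0.029 without abnormal fruits at 17 DAF and −0.16 in normal fruits alone. For DN26918_c0_g2 and DN18673_c0_g1 they were −0.35 by Spearman's rho, −0.46 without that group, −0.38 with median of ratios and −0.68 in normal fruits. Of the 3 most alike unigenes, Spearman's rho shared 0 for each IAA13 unigene and 1 for DN18673_c0_g1, and leaving out abnormal fruits at 17 DAF shared 0 for DN26918_c0_g2 and 1 for DN18673_c0_g1. In the auxin list a pseudocount of 0.1 gave 2 higher at 12 DAF, 4 lower at 17 DAF with a median of −3.13, 2 higher and 2 lower at 22 DAF, 1 higher at 32 DAF and 2 higher at 37 DAF. A pseudocount of 5 gave a median of −0.21 at 17 DAF, 0 higher at 12 DAF, 0 lower at 17 DAF and 0 lower at 27 DAF. A threshold of 2 gave 0 higher at 12 DAF and 0 lower at 17 DAF. Either scaling gave 3 lower at 17 DAF. Over the 16 comparisons, the listed unigenes past 1 ranged from 1260 to 3604, with a pseudocount of 5 from 508 to 2045, and at a threshold of 2 from 542 to 1808. No paired analysis was possible because each column is a mean over the replicates, and for the same reason no replicate could be left out. The causes of these shifts were not tested.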

Other observations

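A further unigene of the same assembly cluster, DN26918_c2_g1, is listed from another component and was not named by the study with this ID. It was singled out after its values were seen. At 12 DAF its level was 2.49 FPKM for normal against 7.09 FPKM for abnormal fruits, and at 17 DAF the levels were 0.774 and 0.373 FPKM. At 22 DAF normal fruits had 29.4 FPKM and abnormal fruits 8.39 FPKM, a log2 difference of −1.69, and at 12 DAF the difference was 1.21. As background, 14.6% of the listed unigenes were lower by more than 1 at 22 DAF and 13.8% higher at 12 DAF. The differences of DN26918_c2_g1 at 17, 27, 32 and 37 DAF were −0.37, −0.73, −0.82 and 0.50. The parts of the annotation used here do not name it, and whether it shares reads with the IAA13 unigenes was not tested.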
